A study of Mus musculus with 5 samples.

Results

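The mouse bone marrow mesenchymal stem cells (BMSCs) kept at -120 mmHg were compared with the BMSCs kept at -80, -160 and -200 mmHg. BMSCs are the stromal cells of the marrow, from which bone-forming, fat-storing and cartilage cells arise. All cells were wild type, were labelled as bone marrow, and were grown for 72 h. The negative pressure was drawn by a vacuum pump and was held for 48 h. A control library at 0 mmHg was deposited too, and its values are given beside the comparison without entering it. Each pressure is represented by 1 library of total RNA, so 4 of the 5 libraries of the series entered the comparison. Animals, their age and any pooling were not given in the sources used here, and pressure and library cannot be told apart. Because no pressure was repeated, no gene could be tested, and every difference below describes these libraries only.

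For each gene the log2 of FPKM + 1 (fragments scaled to exon length and to the library's total reads) at -120 mmHg was set against the mean of the same value in the other 3 pressure libraries. This difference is called the log2 difference below, and a value of 0.5 is about a 1.41-fold difference. Genes entered when their FPKM averaged 5 or more across the pressure libraries, which left 7524 of 55401 genes, 7190 of them protein-coding. At the edge of that rule, Rfxank (5.001 FPKM) and Rcan3 (5.004 FPKM) stood just inside, and Edc3 (4.999 FPKM) and Cyp2d22 (4.997 FPKM) just outside. The libraries held 16638646 reads at -80 mmHg, 16600622 at -120 mmHg, 17012586 at -160 mmHg, 18056998 at -200 mmHg and 18398911 in the control. These totals were recovered from the deposited values, and the intervals of read ratios given below cover counting error only.

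Negative pressure is used on wounds and on healing bone, where it is applied to the tissue through a sealed dressing or chamber. Stromal cells sense force through their matrix contacts and actin cytoskeleton, and they answer to low oxygen through the hypoxia-inducible factors. They also carry the interferon pathway, in which a cell that senses foreign nucleic acid secretes type I interferon, and the interferon receptor then drives antiviral genes and antigen presentation. Osteogenic differentiation of BMSCs is driven by BMP and Wnt signals and by the transcription factor Runx2.

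The -120 mmHg library lay close to the other 3. The median log2 difference over the 7524 genes was 0.01 and its standard deviation over genes was 0.14. A gene was counted as set apart when its log2 difference was at least 0.5 in size and its -120 mmHg value lay outside the range of the other 3. By this rule 11 genes were higher at -120 mmHg, which is 0.146% of the genes tested, and 21 were lower, which is 0.279%. None of these 32 was protein-coding. The same count with another library set apart gave 33 genes at -80 mmHg, 53 at -160 mmHg and 28 at -200 mmHg. The -120 mmHg library was thus the third of 4. An exact one-sided permutation over the 4 choices of library gave a p of 0.75, where 0.25 is the smallest p the design allows. That p restates the rank and cannot test an effect of pressure, because no pressure was repeated. At -160 mmHg 15 protein-coding genes were higher and 3 lower by the rule, against 0 and 0 at -120 mmHg. The absence of protein-coding genes depended on the libraries and settings used. Such genes numbered 4 higher and 4 lower without the -80 mmHg library, 1 and 4 without -200 mmHg, and 1 and 0 without -160 mmHg. Against the median of the other 3 they numbered 4 and 1. With 0.1 in place of 1 added to FPKM they numbered 1 and 3. Upper-quartile scaling gave 2 and 0, quantile normalization 1 and 1, and removal of the trend with exon length 0 and 2. At a mean of at least 1 FPKM they were 10 and 12, and with no filter 23 and 17. Both stayed at 0 in other settings, among them 5 added to FPKM and a mean of at least 10 FPKM.

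With the size lowered to 0.3, about 1.23-fold, 83 genes were higher at -120 mmHg (1.1% of those tested, 54 protein-coding) and 88 were lower (1.17%, 53 protein-coding). With no size at all, the -120 mmHg value was the highest of the 4 pressure libraries in 2042 genes (27.1%) and the lowest in 1907 (25.3%). These last shares are the background against which the gene lists below are read at -120 mmHg. With another library set apart, the -80 mmHg value was the lowest in 29.2% of genes. The -160 and -200 mmHg values were the highest in 23.8% and 25.3%.

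The clearest feature of the -120 mmHg library was that its differences followed the base composition of the transcripts. The 7447 genes with exons of at least 200 nt were placed in 10 bins by the GC content of their longest transcript. In the bin with the lowest GC content, from 31.0% to 42.0%, the median log2 difference at -120 mmHg was -0.12, and the -120 mmHg value was the lowest of 4 in 64.6% of genes and the highest in 4.3%. In the bin with the highest GC content, from 58.1% to 75.5%, the median was 0.13, and the -120 mmHg value was the highest of 4 in 65.1% of genes and the lowest in 2.15%. Every step between these bins went upward. The order ran the other way in the -160 and -200 mmHg libraries, with medians of 0.07 and 0.06 in the lowest bin and -0.06 and -0.10 in the highest. The -80 mmHg library moved little, from -0.01 to 0.02.

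**Figure D1:**
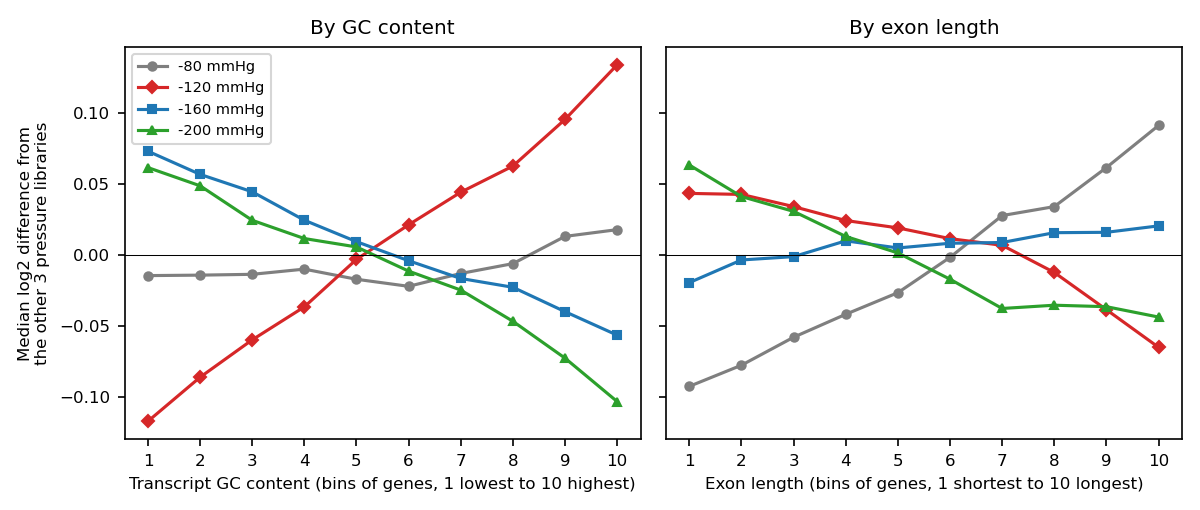
Median log2 difference of each pressure library from the other 3, for genes in 10 bins of transcript GC content (left) and of exon length (right), 744 or 745 genes a bin. The -120 mmHg line climbs from -0.12 to 0.13 with GC content, while the -80 mmHg line climbs with exon length.

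As a description across genes, which share libraries and are not replicates, Spearman's rho of the difference with GC content was 0.62 at -120 mmHg. It was 0.06 at -80 mmHg and -0.37 at both -160 and -200 mmHg, and these values are tied to each other in the same way. Exon length followed less closely at -120 mmHg, with a rho of -0.25, against 0.44 at -80 mmHg. The trend with GC content was present in short, middle and long transcripts alike. From the lowest to the highest GC group within each length group, the median went from -0.04 to 0.12, from -0.09 to 0.13 and from -0.13 to 0.09. Values with this trend taken out are therefore given beside the gene groups. For this GC-adjusted difference, the median difference in each of 50 bins of GC content was subtracted from each gene's difference. For the highest and lowest calls, each library's median departure from the mean of the 4 in each bin was subtracted from that library. After that step the -120 mmHg value was the highest of 4 in 1629 genes (21.7%) and the lowest in 1651 (21.9%). Whether the trend arose in the cells or in making the libraries was not tested.

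The 15 largest increases at -120 mmHg among named genes with at least 100 reads ran from 0.37 to 0.497 on the log2 scale, all short of the size rule. They were Psme2b, Irf7, Prdm2, March9, Plekhh3, Crlf2, Borcs6, Tap2, C8g, Lrg1, Slc1a6, Smad6, Ephb6, Calhm6 and Rab20. Their transcripts had a GC content of 49.3% to 65.6%. The 15 largest decreases ran from -0.48 to -0.36 and were Rrm2, mt-Nd5, Pik3c2a, Smc2, Inhba, Nup43, Tbc1d8b, Abraxas1, Ccna2, Prps1l3, Ptgs2, Mcm4, Hgf, Npat and Gemin8. Their GC content was 37.1% to 47.7%, so the GC contents of the 2 sets did not overlap. After the GC adjustment the increases ran from 0.24 to 0.49 and the decreases from -0.43 to -0.26. The genes were chosen for their large differences, so that they kept their direction is no test. The counting interval of the read ratio lay clear of 1 in all 30, and it holds nothing on the spread between cultures.

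**Figure D2:**
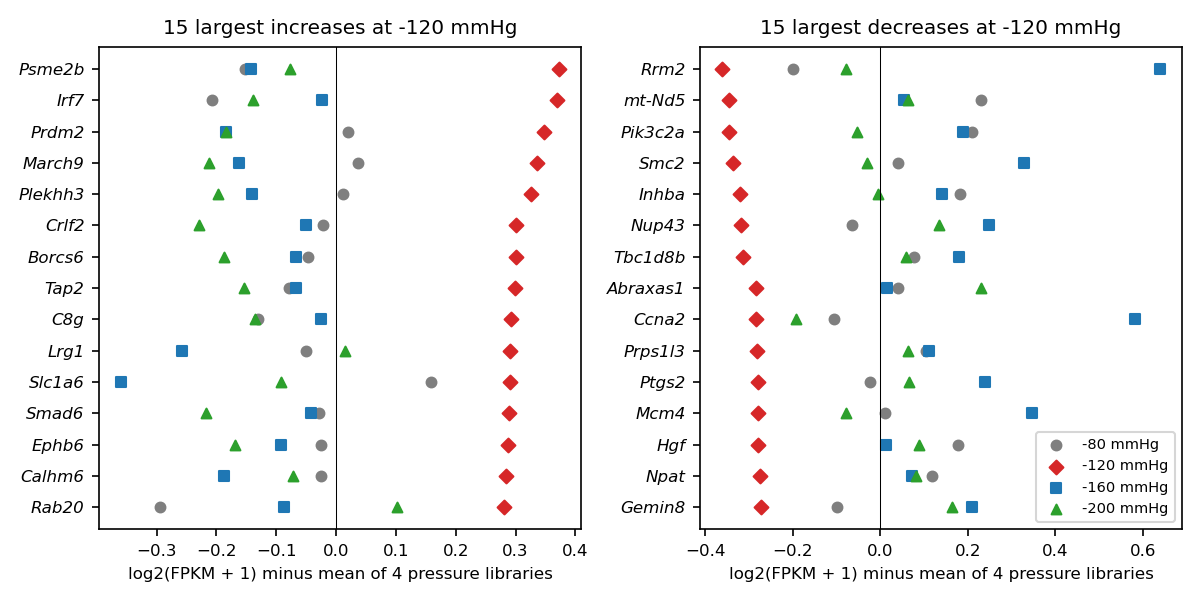
FPKM in each pressure library, as log2(FPKM + 1) minus the mean of the 4, for the 15 largest increases (left) and the 15 largest decreases (right) at -120 mmHg. The genes were chosen by the -120 mmHg point (red), so its place is a description; in 9 of the 15 decreases the -160 mmHg library (blue) was the highest.

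Irf7, the transcription factor that amplifies type I interferon production, had the largest difference of the interferon list. It was measured at 117 FPKM at -120 mmHg, against 78.4 FPKM at -80 mmHg, 89.2 FPKM at -160 mmHg, 82.2 FPKM at -200 mmHg and 118 FPKM in the control. The -120 mmHg value thus lay at the control level and the other 3 pressures lay below both. The log2 difference was 0.49 and the GC-adjusted difference 0.42. With 7357 reads at -120 mmHg, the read ratio against the other 3 together was 1.41, with a 95% Clopper-Pearson interval of 1.37 to 1.45 for counting error.

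Bst2, or tetherin, which holds budding viruses at the cell surface, was next in that list. It stood at 773 FPKM at -120 mmHg, against 569, 631 and 631 FPKM at -80, -160 and -200 mmHg and 1986 FPKM in the control. The log2 difference was 0.34 (GC-adjusted 0.27) and the read ratio 1.26 (1.24 to 1.29). Here the control lay far above all 4 pressure libraries. Isg15, a ubiquitin-like protein that is joined to other proteins after interferon, was at 91.0 FPKM at -120 mmHg, against 74.7, 86.5 and 75.8 FPKM at the other pressures and 1051 FPKM in the control. Its log2 difference was 0.20, and the -160 mmHg value came close to the -120 mmHg value.

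The promoters of interferon-responsive genes classically carry a repeat of the letters GAAA. The 250 bases before the RefSeq gene start (GRCm38.p6) are shown for these 3 genes because Irf7 had the largest difference of the list and Bst2 and Isg15 hold overlapping repeats. They were chosen after their values were seen. Each is written 5′ to 3′ on the gene's own strand, which is the minus strand in all 3, with matches to GAAANNGAAA on either strand in capitals.

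Irf7, chr7:141266425-141266674, minus strand: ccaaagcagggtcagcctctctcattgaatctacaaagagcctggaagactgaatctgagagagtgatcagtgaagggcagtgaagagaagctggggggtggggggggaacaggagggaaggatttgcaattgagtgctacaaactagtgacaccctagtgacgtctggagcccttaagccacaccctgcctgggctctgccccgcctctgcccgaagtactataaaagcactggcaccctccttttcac

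Bst2, chr8:71537473-71537722, minus strand: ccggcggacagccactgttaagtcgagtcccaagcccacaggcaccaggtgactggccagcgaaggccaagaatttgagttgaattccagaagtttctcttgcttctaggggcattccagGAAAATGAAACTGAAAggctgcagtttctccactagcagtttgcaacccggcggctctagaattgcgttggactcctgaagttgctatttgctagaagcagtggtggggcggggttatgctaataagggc

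Isg15, chr4:156200819-156201068, minus strand: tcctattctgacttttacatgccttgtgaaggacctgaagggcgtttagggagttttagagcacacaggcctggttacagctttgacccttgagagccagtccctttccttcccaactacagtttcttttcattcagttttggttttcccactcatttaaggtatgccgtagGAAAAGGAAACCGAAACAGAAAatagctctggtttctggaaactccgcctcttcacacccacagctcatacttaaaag

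The Bst2 window held 2 overlapping matches in a stretch of 16 bases, from 130 to 115 bases before the start. The Isg15 window held 3 overlapping matches in 22 bases, from 78 to 57 bases before the start. The Irf7 window held no match to these letters. Of the 28 measured interferon genes 24 had a promoter in the RefSeq table, and 10 of these, or 41.7%, held a match, against 2.98% of all 32851 windows and 3.63% of the 5814 measured genes found in the table. Matches were held by 5 of the 11 members that were highest at -120 mmHg and by 5 of the 13 that were not. A match describes the letters and does not show binding.

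Over the whole interferon list, 13 of the 28 measured members were highest at -120 mmHg and 2 were lowest, beside 27.1% and 25.3% of all genes. The median log2 difference was 0.08 (GC-adjusted 0.11, again with 13 highest and 2 lowest), 24 members lay above 0, and none passed the size rule. Antigen presentation genes were among the higher ones. Tap1 of this list and Tap2, which is outside it, encode the peptide transporter that supplies class I molecules. They had log2 differences of 0.22 and 0.40 (GC-adjusted 0.16 and 0.32). The class I heavy chains H2-K1 and H2-D1 had 0.23 and 0.24 (GC-adjusted 0.18 for each), although these near-identical genes may share reads. H2-D1 stood at 418 FPKM at -120 mmHg, against 345, 356 and 359 FPKM at the other pressures and 264 FPKM in the control. B2m, the light chain of class I molecules, had 0.02 (GC-adjusted 0.11), and its -120 mmHg value lay within the range of the other 3.

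**Figure D3:**
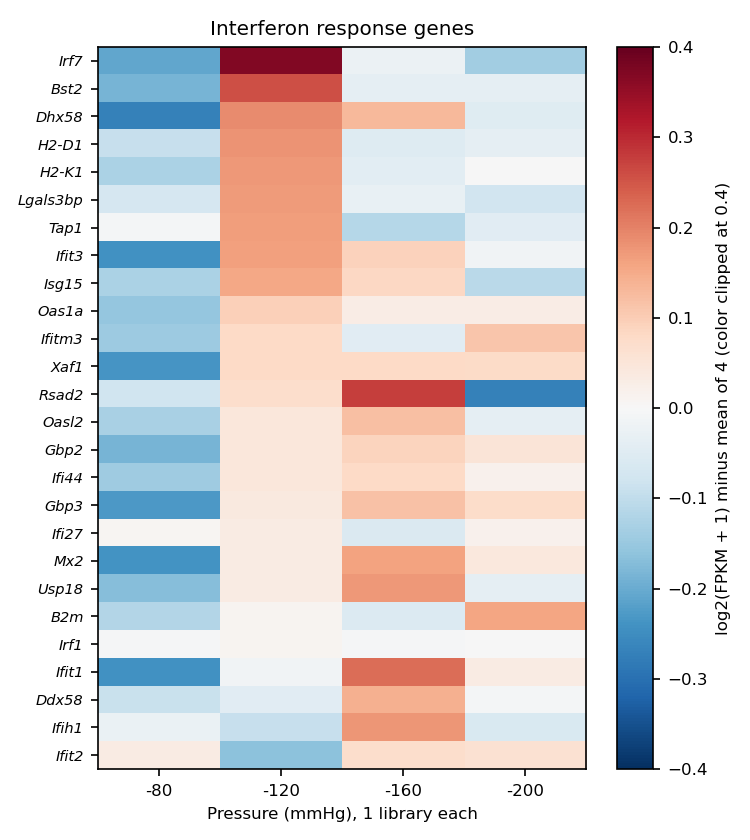
Each row is 1 of 26 of the measured interferon response genes and each column 1 pressure library; color is log2(FPKM + 1) minus the mean of the 4 libraries. Irf7, Bst2, H2-D1, H2-K1, Lgals3bp and Tap1 are highest at -120 mmHg, while the -80 mmHg column is the lowest of 4 in 19 of these genes and the -160 mmHg column is the highest in 12. Over all genes these last shares were 29.2% and 23.8%.

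Dhx58, a RIG-I-like receptor, was highest at -120 mmHg with 19.2 FPKM, close to 18.4 FPKM at -160 mmHg. It was at 13.7 FPKM at -80 mmHg and 16.1 FPKM at -200 mmHg. Not every interferon gene had its highest value at -120 mmHg. The related sensors Ifih1 and Ddx58 had log2 differences of -0.12 and -0.06, and -0.03 and near 0 after the GC adjustment. The antiviral genes Ifit1 and Ifit2 had -0.02 and -0.22, and 0.06 and -0.12 after it, so Ifit1 turned in direction and Ifit2 did not. At -160 mmHg 13 of the 28 members were highest too, beside 23.8% of all genes, and at -80 mmHg 20 were lowest, beside 29.2%. Without the -80 mmHg library the list's median was 0.03. In the control 23 of the 28 members were above all 4 pressure libraries. The share of all genes with the control above all 4 is not given here, so this count has no background.

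Among the other large increases, Psme2b, a proteasome activator subunit gene with a near-identical copy, was at 7.05 FPKM at -120 mmHg, against 4.60, 4.63 and 4.90 FPKM, from 98 reads against 64, 66 and 74. Reads may be split between the copies, so its value is uncertain. Prdm2, a zinc-finger methyltransferase gene, was at 14.2 FPKM at -120 mmHg against 11.1, 9.51 and 9.50 FPKM, with a log2 difference of 0.46 (GC-adjusted 0.43). Crlf2, a receptor subunit for thymic stromal lymphopoietin, was at 50.9 FPKM against 40.5, 39.7 and 34.9 FPKM, and its difference of 0.40 became 0.25 after the GC adjustment. The ubiquitin ligase gene March9 went from 0.45 to 0.31 and Plekhh3 from 0.43 to 0.28 in the same step. For all 5 genes the -120 mmHg library lay above the range of the other 3, as the rule that chose them required.

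The genes of the lysosome and autophagy, which degrade and recycle the content of the cell, had the highest median, 0.10, among lists of 5 or more measured genes. Of 22 measured members 13 were highest at -120 mmHg and 2 lowest, and 19 lay above 0. After the GC adjustment the median was 0.07, with 10 highest and 2 lowest. Gaa, the acid alpha-glucosidase, stood at 160 FPKM at -120 mmHg against 144, 130 and 122 FPKM, with a log2 difference of 0.28 (GC-adjusted 0.14). Ctsz, a lysosomal cysteine protease, was at 207 FPKM against 190, 171 and 178 FPKM (0.20, GC-adjusted 0.11). Grn, the progranulin gene, was at 215 FPKM against 178, 194 and 200 FPKM (0.18, GC-adjusted 0.09). Sqstm1, the autophagy receptor p62, was at 215 FPKM against 192, 195 and 181 FPKM (0.19, GC-adjusted 0.13). The membrane protein gene Lamp2 went the other way, at 124 FPKM against 133, 138 and 141 FPKM (-0.14, GC-adjusted -0.03). The differences are small, at most 1.21-fold in reads, and none passed the size rule.

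The ATF4 list, the genes switched on when amino acids are short, also had 13 of 28 members highest at -120 mmHg, with a median of 0.07. This list moved with GC content. After the adjustment 7 members were highest, 4 lowest, and the median was 0.01. Gdf15, a secreted stress cytokine, was at 8.23 FPKM at -120 mmHg against 5.87, 6.60 and 7.48 FPKM (log2 difference 0.28, GC-adjusted 0.14). Ddit3, the stress transcription factor CHOP, lay within the range of the other 3.

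The 13 protein-coding genes of the mitochondrial genome are transcribed inside the organelle and encode core subunits of the respiratory chain. Of these, 10 were measured at the level rule, all 10 lay below 0 at -120 mmHg, and 9 were the lowest of the 4 pressure libraries. Their median log2 difference was -0.20, the lowest among lists of 5 or more measured genes. These genes have a median GC content of 37.4%, within the lowest GC bin above, and after the GC adjustment the median was -0.09, with 5 lowest and 2 highest. The part of GC content in this difference was not tested beyond that step. Mitochondrial protein-coding reads made up 2.33% of the library at -120 mmHg, against 2.68%, 2.63% and 2.78% at -80, -160 and -200 mmHg and 2.24% in the control. In bulk RNA, fewer cells of a kind and less RNA per cell cannot be told apart, and this holds for every group below.

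mt-Nd5, a subunit of complex I, stood apart from the rest of that list. It was at 1014 FPKM at -120 mmHg, against 1511 FPKM at -80 mmHg, 1336 FPKM at -160 mmHg, 1345 FPKM at -200 mmHg and 772 FPKM in the control. The log2 difference was -0.46, or -0.34 after the GC adjustment, and the read ratio was 0.726 (0.717 to 0.735). mt-Nd2, of the same complex, was at 1008 FPKM against 1134, 1255 and 1239 FPKM (-0.26, GC-adjusted -0.14). mt-Nd6 was at 2203 FPKM against 2447, 2561 and 2881 FPKM (-0.25, GC-adjusted -0.13), and mt-Co1, a catalytic subunit of complex IV, had -0.19 (GC-adjusted -0.08). mt-Co3 was the 1 measured member within the range of the others (-0.01). The nuclear genes of the respiratory chain did not share this direction. Their 46 measured members had a median of 0.04, with 15 highest and 3 lowest (GC-adjusted 0.03, with 15 and 5), and Ndufa5, a complex I subunit, was at 55.5 FPKM at -120 mmHg against 42.7, 50.6 and 48.8 FPKM (0.23).

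**Figure D4:**
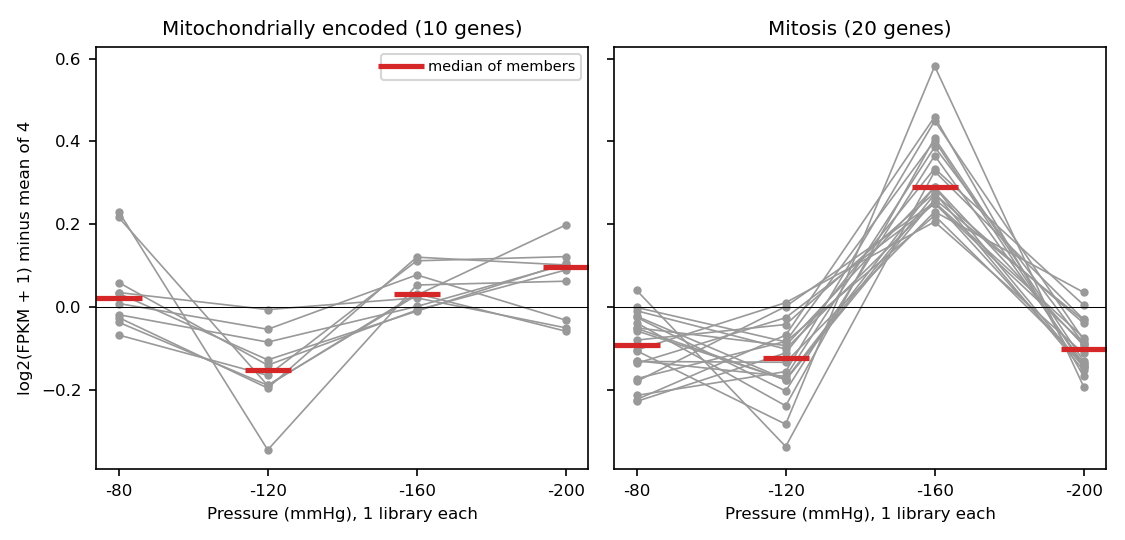
log2(FPKM + 1) minus the mean of the 4 pressure libraries for the 10 measured mitochondrially encoded genes (left) and the 20 measured mitosis genes (right); each gray line is 1 gene and the red bar is the median. The mitochondrial genes are lowest at -120 mmHg in 9 of 10 genes, while all 20 mitosis genes are highest at -160 mmHg. Over all genes these shares were 25.3% and 23.8%.

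The cell cycle genes Rrm2, Smc2, Ccna2 and Mcm4 were 4 of the 15 largest decreases. In the lists they belong to, the -160 mmHg library stood out more than the -120 mmHg library. Of 20 measured mitosis genes, 9 were lowest at -120 mmHg and none highest, with a median of -0.16 (GC-adjusted -0.13). All 20 were highest at -160 mmHg, beside 23.8% of all genes, and without that library the median was -0.02. The 17 measured DNA replication genes had a median of -0.14 (GC-adjusted -0.12) with 6 lowest and 1 highest, and without the -160 mmHg library the median was -0.01. Of those 17, 14 were highest at -160 mmHg, beside the same 23.8%. In the control 19 of the 20 mitosis genes and 16 of the 17 replication genes were above all 4 pressure libraries. These control counts too have no share of all genes beside them.

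Single genes in these lists differed in how far they rested on -160 mmHg. Rrm2, the small subunit of ribonucleotide reductase, was at 7.33 FPKM at -120 mmHg, against 8.31, 15.7 and 9.13 FPKM at -80, -160 and -200 mmHg and 18.9 FPKM in the control. Its log2 difference was -0.48, and its -160 mmHg value lay well above the rest of the pressures. Ccna2, the cyclin of S phase and early mitosis, had the same shape, with 4.77 FPKM against 5.52, 9.50 and 5.14 FPKM (-0.38). Smc2, a core subunit of condensin, was below each of the others by a wider margin, at 5.20 FPKM against 7.05, 8.83 and 6.67 FPKM (-0.45, GC-adjusted -0.34). Mcm4, of the replicative helicase, was at 9.48 FPKM against 11.8, 15.2 and 11.1 FPKM (-0.37). Mki67, a general proliferation marker, was just below the level rule, with 4.20 FPKM against 4.37, 7.13 and 4.29 FPKM, so its -120 mmHg value was nearly that of -80 and -200 mmHg.

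Other large decreases encoded proteins of several kinds. Inhba, which encodes the activin A subunit, was at 5.28 FPKM at -120 mmHg, against 7.89, 7.64 and 6.81 FPKM and 3.93 FPKM in the control (log2 difference -0.43, GC-adjusted -0.33). Hgf, hepatocyte growth factor, was at 9.62 FPKM against 13.6, 12.0 and 12.7 FPKM and 4.98 FPKM in the control (-0.37, GC-adjusted -0.26). Ptgs2, the inducible cyclooxygenase, was at 51.5 FPKM against 61.7, 74.3 and 65.7 FPKM and 13.9 FPKM in the control (-0.37, GC-adjusted -0.27). In these 3 genes the -120 mmHg value lay below the other pressures and above the control. Pik3c2a, a lipid kinase of membrane traffic, was at 4.72 FPKM against 7.40, 7.29 and 6.004 FPKM (-0.46, GC-adjusted -0.35). Over the list of cytokines, chemokines and NF-kB targets, 5 of 24 members were highest and 5 lowest, with a median of -0.02 (GC-adjusted 0.01, with 7 and 5). Il6 (8.61 FPKM) and Ccl2 (333 FPKM) lay within the range of the other pressures, and Cxcl5 was at 232 FPKM against 258, 244 and 277 FPKM.

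The osteogenic list had 10 measured members, of which 4 were lowest at -120 mmHg and 1 highest, with a median of -0.10 (GC-adjusted -0.08). Spp1, the bone matrix protein osteopontin, was at 81.7 FPKM at -120 mmHg, against 100.3, 117 and 98.5 FPKM at the other pressures and 1750 FPKM in the control. The log2 difference was -0.36 (GC-adjusted -0.27) and the read ratio 0.778 (0.742 to 0.815). The control stood far above every pressure library. Enpp1, which makes the mineralization inhibitor pyrophosphate, was at 11.4 FPKM against 13.5, 14.9 and 13.3 FPKM (-0.26, GC-adjusted -0.21), and Cdh11, the osteoblast cadherin, was at 28.9 FPKM against 35.1, 35.4 and 32.2 FPKM (-0.24, GC-adjusted -0.17). Runx2, the master regulator of osteoblasts, lay within the range, at 6.11 FPKM against 6.90, 5.79 and 6.22 FPKM. Alpl, alkaline phosphatase, was below the level rule in every pressure library, at 1.28 FPKM against 0.894, 0.977 and 1.26 FPKM.

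In the BMP and TGF-beta list, 7 of 21 measured members were highest at -120 mmHg and 6 lowest, or 5 and 3 after the GC adjustment. The inhibitory Smads were higher, Smad6 at 15.8 FPKM against 12.5, 12.3 and 10.8 FPKM (0.39, GC-adjusted 0.24) and Smad7 at 9.27 FPKM against 8.02, 7.20 and 7.25 FPKM (0.28, GC-adjusted 0.19). Id3, a target of BMP signals, was at 100.2 FPKM against 79.5, 87.2 and 88.1 FPKM (0.24). The receptors Bmpr1a (-0.22), Bmpr2 (-0.19) and Tgfbr1 (-0.18) were lowest at -120 mmHg, with smaller GC-adjusted differences of -0.12, -0.07 and -0.06, while Tgfbr2 (0.04) lay within the range. The ligand Bmp4 (24.3 FPKM, 0.12) was highest, and the BMP antagonist Grem1 (164 FPKM, -0.09, GC-adjusted -0.01) was lowest. The list's median of 0.04 was near 0 after the GC adjustment.

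Of the 12 measured Wnt genes 3 were highest and 5 lowest, with a median of -0.03. After the GC adjustment 2 were highest and 3 lowest, and the median turned to 0.02. The receptor Fzd2 was at 40.9 FPKM against 37.4, 34.5 and 30.4 FPKM (0.26, GC-adjusted 0.16) and the co-receptor Lrp5 at 6.30 FPKM against 5.78, 4.73 and 4.84 FPKM (0.26, GC-adjusted 0.20). The co-receptor Lrp6 (-0.06, near 0 after the GC adjustment) and Ctnnb1, beta-catenin (-0.10, GC-adjusted -0.11), were lowest. Axin2, a target of Wnt signals, was below the level rule, at 4.04 FPKM against 3.84, 3.84 and 3.70 FPKM.

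Matrix genes went in both directions. Col1a1, the main collagen of bone, was at 564 FPKM at -120 mmHg, next to 551 FPKM at -80 mmHg and above 455 and 435 FPKM at -160 and -200 mmHg (0.24, GC-adjusted 0.11). Vcan, the proteoglycan versican, was lowest, at 10.5 FPKM against 12.9, 14.2 and 12.2 FPKM (-0.30, GC-adjusted -0.20). Over the 28 measured collagens and matrix genes 6 were highest and 6 lowest, with a median of 0.03 (GC-adjusted 0.02, with 2 and 4). Among the proteases, Mmp3, or stromelysin, was lowest, at 172 FPKM against 199, 237 and 222 FPKM and 330 FPKM in the control (-0.35, GC-adjusted -0.29). Mmp14, a membrane-bound collagenase, was highest, at 45.6 FPKM against 44.4, 39.8 and 37.5 FPKM (0.17), close to the -80 mmHg value.

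The genes of low oxygen and glycolysis had a median of -0.04 over 26 measured members, with 2 highest and 4 lowest (GC-adjusted -0.06, with 1 and 3). At -160 mmHg 22 of them were highest, beside 23.8% of all genes. Without that library the median was 0.04, so the direction of the list turned with it. Hif1a, the oxygen-regulated transcription factor, was at 128 FPKM at -120 mmHg against 149, 146 and 143 FPKM (-0.19, GC-adjusted -0.09). Vegfa, Ldha and Slc2a1 all lay within the range of the other pressures. Of the force-responsive genes, Vcl, the focal adhesion protein vinculin, was lowest at 9.94 FPKM against 14.3, 11.6 and 10.2 FPKM (-0.24, GC-adjusted -0.22). Zyx, which encodes the focal adhesion protein zyxin, was highest at 237 FPKM against 215, 203 and 204 FPKM (0.20, GC-adjusted 0.10), and the YAP targets Ccn1 and Ccn2 lay within the range. The immediate early genes Egr1 and Nr4a1 did too, and Fos was at 51.3 FPKM against 51.8, 53.6 and 60.8 FPKM.

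The list of cholesterol and fatty acid synthesis had more members lowest than highest at -120 mmHg, 10 against 2 of 29, with a median of -0.02. Of all genes 25.3% were lowest and 27.1% highest. After the GC adjustment the list had 4 lowest and 4 highest. The isomerase gene Idi1 was at 5.02 FPKM at -120 mmHg against 6.58, 6.88 and 6.35 FPKM (-0.34, GC-adjusted -0.24). Cyp51, a sterol demethylase of cholesterol synthesis, was at 25.3 FPKM against 28.002, 29.7 and 29.1 FPKM (-0.19, GC-adjusted -0.13). The synthase gene Hmgcs1 had a log2 difference of -0.09. The ribosomal protein genes had a median of 0.03 over 64 members, with 8 highest and 0 lowest (GC-adjusted 0.01, with 9 and 3). In 56 of the 64 the -200 mmHg library was the highest, beside 25.3% of all genes.

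The other lists are given with their counts of highest and lowest members and their medians, as deposited and after the GC adjustment. Proteasome genes had 9 of 31 highest and 3 lowest at -120 mmHg (median 0.04), and 13 and 4 after the adjustment (0.05), where 21.7% and 21.9% of all genes were highest and lowest. Psmb5, a catalytic subunit, was at 74.0 FPKM against 62.8, 59.9 and 60.1 FPKM (0.28, GC-adjusted 0.18). Targets of p53 had 7 of 15 highest and 5 lowest (-0.01), and 4 and 5 after the adjustment (0.04), so members lay at both ends. Gadd45b, a stress-induced gene, was at 41.1 FPKM against 34.2, 35.7 and 29.9 FPKM (0.30, GC-adjusted 0.22). The cell cycle inhibitor gene Cdkn1a was below the level rule and lay within the range, at 3.66 FPKM against 4.40, 4.76 and 3.16 FPKM.

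Angiogenic and growth factor genes had 8 of 22 highest and 6 lowest (0.04), and 7 and 6 after the adjustment (0.02). Vegfd was highest, at 215 FPKM against 196, 198 and 189 FPKM (0.15, GC-adjusted 0.20). Immediate early genes had 6 of 19 highest and 1 lowest (0.02), but 2 and 4 after the adjustment (-0.03). Unfolded protein response genes had 4 of 24 and 4 (-0.02), then 3 and 4 (0.01). Heat shock genes had 3 of 18 and 3 (-0.01), then 2 and 2 (-0.01), and antioxidant genes had 2 of 24 and 4 (0.02), then 3 and 3 (near 0). The chaperone gene Hspa5 and the metallothionein gene Mt1 lay within the range.

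Actin and contraction genes had 5 of 22 highest and 5 lowest (-0.01), then 4 and 4 (-0.03). Targets of YAP/TAZ had 1 of 15 and 2 (0.01), then none and none (near 0), and matrix proteases and inhibitors had 5 of 18 and 5 (0.01), then 4 and 4 (0.02). Clock genes had 2 of 11 and 1 (near 0), then none and 4 (-0.04). Glucocorticoid targets had 1 of 9 and 3 (-0.03), then 2 and 1 (0.03), and fat storage genes had 2 of 9 and 2 (0.04), then 2 and 1 (near 0). Nr1d2, a clock repressor, was lowest, at 14.5 FPKM against 16.5, 18.6 and 18.0 FPKM (-0.26, GC-adjusted -0.17).

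**Figure D5:**
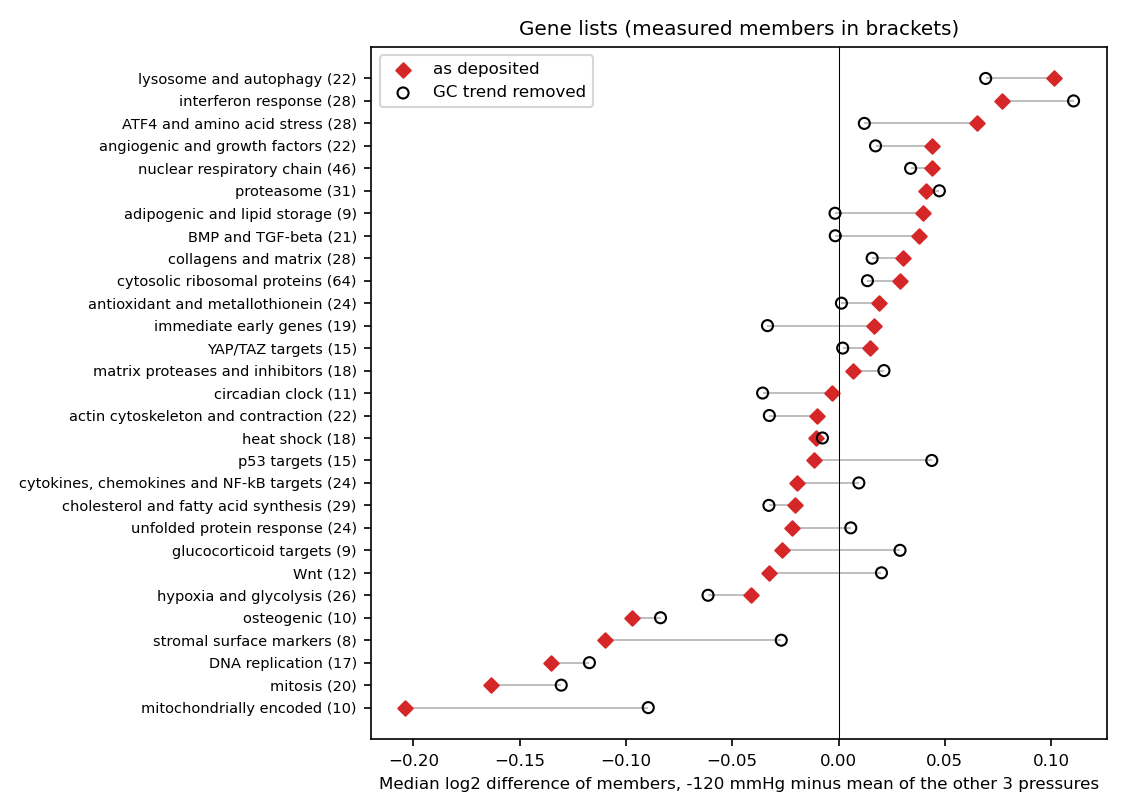
Median log2 difference at -120 mmHg of the measured members of each gene list with at least 5 of them, as deposited (red) and with the GC trend removed (open circles). Lysosome and interferon genes lie at the top with 0.10 and 0.08, and the mitochondrially encoded genes at the bottom with -0.20, moving to -0.09 with the trend removed.

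Most genes that did pass the size rule were short RNAs or pseudogenes. Of the 11 higher genes 8 had exons under 200 nt in all, and of the 21 lower ones 14. Pseudogenes numbered 5 and 5, miRNA genes 2 and 8, snoRNA genes 2 and 4, and mitochondrial tRNA genes 2 and 1. They rested on 25 to 558 reads over the 4 libraries in the higher set and 32 to 627 in the lower set. The counting interval of the read ratio lay clear of 1 in 6 of the 11 and in 16 of the 21. The genes were chosen by the values of the same libraries, so these counts are no test. mt-Th, the mitochondrial histidine tRNA, had the largest increase, with 23 reads at -120 mmHg against 12, 3 and 10 and a log2 difference of 1.56. mt-Tl2, a mitochondrial leucine tRNA, had 46 reads against 20, 8 and 42 (1.27), while mt-Tl1, the other leucine tRNA, had 46 against 77, 78 and 63 (-0.59). The small nuclear RNA gene Gm25897 had the largest decrease, with 7 reads against 32, 10 and 31 (-1.37). The miRNA gene Mir23b had 23 reads against 34, 26 and 57 (-0.61). Libraries of this kind keep few fragments as short as these RNAs, and reads of a miRNA gene here are not its mature form.

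Some of the 15 stromal markers listed were carried in all 5 libraries. At -120 mmHg Ly6a (Sca-1) was at 827 FPKM, Itgb1 at 267 FPKM, Cxcl12 at 130 FPKM, Pdgfra at 63.7 FPKM and Pdgfrb at 54.3 FPKM, while Thy1, Nt5e and Eng, markers by which such cells are commonly defined, were at 1.83, 1.13 and 2.43 FPKM. Lepr, Alcam, Mcam and Nes were low as well, at 0.205, 0.135, 0.971 and 3.46 FPKM at -120 mmHg. In the control Thy1 and Nt5e were at 0.018 and 0.32 FPKM. Of 8 stromal markers measured at the level rule 4 were lowest at -120 mmHg and 1 highest, with a median of -0.11 (GC-adjusted -0.03). Among macrophage markers Ptprc, Itgam, C1qa, C1qb and Tyrobp were listed at 0 at -120 mmHg, while the summed level of the list was 75.7 FPKM at -120 mmHg against 69.8, 68.0 and 75.2 FPKM, mostly Cd14 and Lyz2. The granulocyte list summed to 31.2 FPKM against 26.0, 24.1 and 27.7 FPKM, mostly Camp, with S100a9, Mpo and Ltf listed at 0. The endothelial, erythroid, lymphoid, osteoclast, epithelial and muscle lists had no member at the level rule, and their summed levels at -120 mmHg ran from 0.11 FPKM (lymphoid) to 7.73 FPKM (osteoclast). The part of such cells in the interferon and lysosome differences was not tested.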

How the data were processed

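RNA-seq was measured in 5 libraries, 1 per pressure. The tools named in the submitters' processing notes are HISAT2, SAMtools and featureCounts (1.5.0-p3), and the build is the rat genome rn6, although the gene IDs are mouse Ensembl IDs. Coordinates, lengths and GC content therefore came from GENCODE M21 (GRCm38). The authors deposited FPKM per gene. The strand setting of the counting is not given here, and overlapping or near-identical genes may share reads. Multiplying FPKM by exon length gave whole reads for 98.8% of 55401 genes (tolerance 0.001 reads). These reads served for intervals only, not for a count test. Log2(FPKM + 1) at -120 mmHg was compared with the mean of the other 3 pressures, where FPKM averaged 5 or more. The calculation was tested on simulated data. Named genes were the 15 largest differences each way (at least 100 reads, exons of at least 200 nt, outside the range of the others), up to 4 such members per list, and a set of genes named whatever their values. Genes whose pattern was described beyond these were taken from the lists. The comparison, the 37 gene lists and the settings were chosen with earlier results of these data known. The GC adjustment was added after the data were seen. Promoters came from RefSeq (GRCm38.p6). Some genes of the lists are not reported here by name. Python 3.11.15, numpy 2.4.6, pandas 2.3.3 and scipy 1.17.1 were used.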

Additional observations from a re-analysis of the deposited data

How the results depend on the processing

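No paired analysis was possible because each pressure had 1 library. The counts of genes set apart (11 higher and 21 lower) moved with the level and size rules. The higher count was 93 and the lower 125 at a mean of at least 1 FPKM, 367 and 230 with no filter, 4 and 12 at 10 FPKM, 83 and 88 at a size of 0.3, and 3 and 8 at a size of 1. They were 3 and 7 with exons of at least 200 nt, 0 and 0 with protein-coding genes alone, 5 and 9 with at least 100 reads, and the higher count was 6 with a pseudocount of 5. Leaving out 1 of the other pressures gave 15 to 16 higher and 26 to 29 lower.

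Leaving out 1 other pressure moved the median of hypoxia genes between -0.0841 and 0.0419, of DNA replication between -0.215 and -0.0051, of mitosis between -0.270 and -0.0209, of interferon genes between 0.0314 and 0.130, of heat shock between -0.0614 and 0.0049, of antioxidant genes between 0.00095 and 0.0450, of ribosomal protein genes between -0.0186 and 0.0905 and of nuclear respiratory chain genes between 0.0159 and 0.0854. Against the median of the other 3 pressures in place of their mean, mitosis was at -0.0878, ribosomal proteins at 0.0512 and the respiratory chain at 0.0651. For antioxidant, ribosomal and respiratory chain genes, upper-quartile scaling gave 0.0429, 0.0551 and 0.0698, quantile normalization -0.0078, -0.0081 and 0.01001, and removal of the length trend -0.0072, -0.0098 and 0.0064. Removal of the GC trend gave 0.0136 for ribosomal proteins. The medians of the other 21 lists with at least 5 members stayed within the 95% interval of the median over their members in all settings run. That interval takes the genes of a list as independent and is wide for lists of few members. For the 10 osteogenic genes it ran from -0.26 to 0.04. Staying inside it does not show that a median held. Within it, removal of the GC trend took ATF4 genes from 0.07 to 0.01 and mitochondrially encoded genes from -0.20 to -0.09. The Wnt median turned from -0.03 to 0.02.

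Among single genes, Ogn (0.0124), Csnk1e (-0.0389), Lpl (0.0310), Rpl36 (-0.0170) and Rpl8 (-0.0031) changed sign with the GC trend removed, and Lpl (0.0286) also with the length trend removed. The causes were not tested. With 1 library a pressure, depth limits only the counting error. Under 100 reads over the 4 libraries lay behind 6 of the 11 higher and 12 of the 21 lower genes.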
